A study of Bos taurus and Sus scrofa with 6 samples.

Results

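Meiotic recombination was followed through 6 genes chosen by symbol, SPO11, HORMAD1, MEIOB, DMC1, RAD51AP2 and HSF2BP. All 6 were listed among the 19994 genes of the cattle table, and 5 among the 22694 genes of the pig table, where HSF2BP was not listed by symbol. The data were droplet single-cell RNA-sequencing libraries, counted as unique molecular identifiers (UMIs), of all cells of the testis. They came from 3 prepubertal Holstein cattle, 4.5 months old, and from 3 prepubertal pigs of mixed breed, 3 months old. No treatment or engineered allele is given for any animal, and species cannot be told apart from age, breed, gene annotation and library. In each species 2 libraries carry the same testis number in the labels, so the p-values may measure the spread between libraries rather than between animals, although the study's methods give 3 animals per species. Between 2236 and 8138 cells were kept per library, at a median of 789 to 5870 UMIs, and 9 to 61 cell barcodes were shared by any pair of libraries.

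In the first meiotic prophase, chromosomes are cut on purpose and the breaks are repaired from the homologous chromosome, which joins homologs by crossovers. SPO11 makes the breaks, and HORMAD1 sits on the chromosome axis and promotes them. MEIOB binds the single-stranded ends with SPATA22, HSF2BP binds BRCA2 and helps to bring recombinases to the ends, DMC1 is the meiosis-specific recombinase that exchanges strands, and RAD51AP2 is a germ line protein of the same repair pathway. In the testis this machinery is known from spermatocytes.

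In the RefSeq annotation of Sscrofa11.1, SPO11 lay at chr17:57730676-57745875, HORMAD1 at chr4:98447298-98469650, MEIOB at chr3:40092689-40133173, DMC1 at chr5:9431236-9470333 and RAD51AP2 at chr3:120318238-120327050, all on the plus strand. RAD51AP2 had 5 exons, against 12 to 15 in the longest transcript of the other 4 genes. DMC1 overlapped an uncharacterised gene on the other strand in pigs. In cattle it overlapped an uncharacterised noncoding RNA gene in an annotation of another build than the counts, and the strands were not compared. Its counts are thus uncertain where strand was not used. Since DMC1 passed the test in pig germ-like cells and MEIOB did not, the 200 bases before their annotated starts are shown, chr5:9431036-9431235 and chr3:40092489-40092688 on the plus strand. Capitals mark CNCCTCAG, a motif known for the meiotic factor STRA8.
DMC1: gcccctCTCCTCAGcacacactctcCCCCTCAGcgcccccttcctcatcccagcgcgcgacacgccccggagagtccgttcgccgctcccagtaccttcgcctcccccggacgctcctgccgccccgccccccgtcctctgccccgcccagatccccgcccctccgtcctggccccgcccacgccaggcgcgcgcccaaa
MEIOB: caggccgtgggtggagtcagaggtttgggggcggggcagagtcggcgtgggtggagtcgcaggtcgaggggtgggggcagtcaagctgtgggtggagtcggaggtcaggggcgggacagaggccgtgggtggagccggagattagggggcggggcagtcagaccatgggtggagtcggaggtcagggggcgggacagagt

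The DMC1 window held 2 matches to CNCCTCAG, and the windows of SPO11, HORMAD1, MEIOB and RAD51AP2 held none on either strand. At least 1 match was present in 5.91% of 19559 windows of that length before protein-coding genes. None of the 5 windows held TTTCCCGC (1.12% of all windows) or CACGTG (5.50%), and that of HORMAD1 alone held CCAAT (27.7%). A match is a description of the letters in a window that depends on the annotated start.

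Germ-like cells were named from clusters rich in germ cell markers, and numbered 83, 218 and 218 in cattle 1, 2 and 3 and 649, 477 and 699 in pigs 1, 2 and 3. Levels are given as CPM, the UMIs of a gene per 1e+06 UMIs of the summed cells. The summed level of the germ markers was 2150 to 2691 CPM in cattle germ-like cells, with 9 markers listed, and 57.6 to 75.7 in all other cells. In pigs, with 8 listed, it was 1005 to 1364 and 19.1 to 49.0. DDX4, an RNA helicase of germ cells, gave 44.3, 71.8 and 89.8 CPM in cattle 1, 2 and 3 and 46.8, 91.3 and 68.6 CPM in pigs 1, 2 and 3, all within germ-like cells. Markers of other cells were also present: the Leydig cell list summed to 6166, 517 and 841 CPM in cattle germ-like cells and to 838, 355 and 175 in those of pigs. The myoid list summed to 897, 343 and 424 CPM in cattle and to 106, 662 and 241 in pigs, above the Leydig list in pigs 2 and 3. The Sertoli list gave 323 CPM in pig 2 and the erythroid list 351 in pig 3. The part of such RNA in the results was not tested.

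In cattle, SPO11 gave 3.41, 3.82 and 6.16 CPM in germ-like cells of animals 1, 2 and 3, from 1, 5 and 23 UMIs, and 0, 0.130 and 0 in other cells. HORMAD1 gave 20.5, 32.1 and 33.0 in germ-like cells and 0.656, 0.650 and 0.342 in other cells. For both genes every germ-like value lay above every value of the other cells. MEIOB gave 0, 3.82 and 3.48 in germ-like cells and 0.328, 0.325 and 0.240 in other cells, so the ranges overlapped through cattle 1, where 0 UMIs allow a level of up to 12.6 CPM (exact 95% limit, counting error only).

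DMC1 gave 0, 9.17 and 4.55 CPM in cattle germ-like cells and 0, 0.130 and 0.0342 in other cells, again with 0 in cattle 1. RAD51AP2 gave 13.6, 3.82 and 6.16 in germ-like cells and 0, 0.195 and 0.0684 in other cells, with no overlap. HSF2BP, the BRCA2 partner, had UMIs in germ-like cells and in each of the other named cell classes. It gave 191, 130 and 123 CPM in germ-like cells and 33.1, 22.2 and 16.3 in other cells. Its levels were 4.91 to 46.5 in Sertoli-like, Leydig-like, myoid-like, macrophage-like and lymphocyte-like cells, and 177, 86.9 and 62.4 in endothelial-like cells, from 3, 12 and 14 UMIs.

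Barcodes with at most 50 UMIs, taken as free RNA, gave 21.7, 34.1 and 30.1 CPM of HSF2BP in cattle 1, 2 and 3, a range that overlapped that of the other cells, and the part of free RNA in the values of the other cells was not tested. In the same barcodes HORMAD1 gave 2.96, 2.44 and 7.22, above its level in other cells, and SPO11 and RAD51AP2 had 0 UMIs. Thinned to 1000 UMIs per cell, which left out 7 germ-like and 2557 other cells, HSF2BP was seen in 12.1% ± 1.62 of germ-like and 2.20% ± 0.629 of other cells (SD, n = 3), and HORMAD1 in 3.02% ± 0.568 and 0.0392% ± 0.0345. Both shares were higher in 3 of 3 cattle (exact permutation test of 3 against 3, two-sided, which cannot go below its value here of p = 0.1). This test, here and for the other shares of germ-like against other cells, did not use the pairing of the 2 shares of an animal. The other genes were rarely seen at that depth, with a mean of 0.612% of germ-like cells for DMC1, 0.306% for RAD51AP2 and 0.153% each for SPO11 and MEIOB. DMC1 was higher than in other cells in 2 of 3 cattle (exact permutation p = 0.4), and RAD51AP2, SPO11 and MEIOB were each higher in 1 of 3. Without thinning HORMAD1 was seen in 6.02, 16.5 and 38.1% of the germ-like cells (cattle 1, 2 and 3), which follows their median depth of 3514, 6176 and 16908 UMIs.

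Sums of UMIs per animal were compared by edgeR's quasi-likelihood test with TMM scaling and Benjamini-Hochberg adjustment over all genes tested. Of 14200 cattle genes, 23.1% passed as higher in germ-like cells, and 49.9% in either direction. HORMAD1 was higher by 4.74 ± 0.49 on the log2 scale (SE, adjusted p = 6.59e-05) and HSF2BP by 1.48 ± 0.31 (adjusted p = 0.00353). SPO11 was higher by 5.33 ± 0.97 (adjusted p = 0.00153), DMC1 by 5.05 ± 0.94 (adjusted p = 0.00182) and RAD51AP2 by 4.67 ± 0.80 (adjusted p = 0.00112). These last 3 had 2, 3 and 5 UMIs in all other cells and reached the minimum of 10 UMIs only through the germ-like cells, so that they had to differ.

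The ratio of pooled levels, not TMM-scaled, was 129.5 for SPO11 (95% counting interval 32.8 to 1120), 86.3 for DMC1 (26.8 to 443) and 57.2 for RAD51AP2 (22.1 to 188). For HORMAD1 the ratio was 69.4 (44.4 to 114), for MEIOB 12.4 (5.73 to 27.5) and for HSF2BP 6.67 (6.03 to 7.37). MEIOB was higher by 2.34 ± 0.70 on the log2 scale (edgeR, adjusted p = 0.0197). That call was lost without cattle 2 (adjusted p = 0.162), without cattle 3 (0.282), against Sertoli-like cells alone (0.0625) and with DESeq2 (0.0802). With library size in place of TMM the median log2 difference of all genes moved from -0.17 to 0.94 in cattle and from -0.08 to 0.25 in pigs, and the direction of the 6 cattle genes did not turn, while MEIOB in pigs, which did not pass, turned from -0.24 to 0.088.

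**Figure D1:**
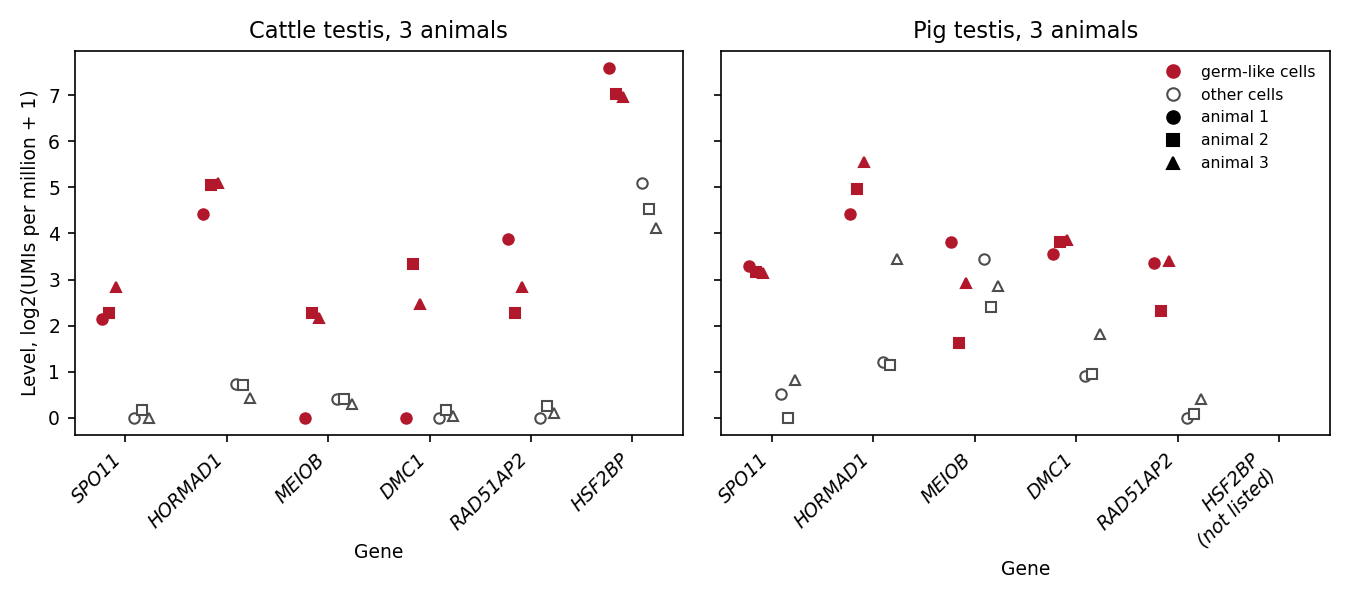
Level of each gene in germ-like (filled) and other cells (open) of each animal, as log2 of CPM plus 1, with 1 point per animal. HSF2BP is the highest of the 6 in both cell groups of cattle, and in pigs the 2 cell groups overlap for MEIOB only.

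In pigs SPO11, HORMAD1, DMC1 and RAD51AP2 were higher in germ-like cells, and MEIOB did not pass. SPO11 gave 8.78, 7.94 and 7.77 CPM in germ-like cells of pigs 1, 2 and 3 and 0.433, 0 and 0.765 in other cells. HORMAD1 gave 20.5, 30.4 and 46.0 in germ-like cells and 1.30, 1.22 and 9.94 in other cells. DMC1 gave 10.7, 13.1 and 13.6 in germ-like cells and 0.867, 0.947 and 2.51 in other cells. For these 3 genes the ranges did not overlap, and the other cells of pig 3 were the highest of the 3 animals.

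RAD51AP2 gave 9.27, 3.97 and 9.50 CPM in pig germ-like cells and 0, 0.0676 and 0.328 in other cells, again without overlap and highest in the other cells of pig 3. It had 0 UMIs in Leydig-like, lymphocyte-like and endothelial-like cells of the 3 pigs. In barcodes not called as cells, TEX101, a surface protein of germ cells, gave 27.8, 6.72 and 187 CPM in pigs 1, 2 and 3, and HORMAD1 2.27, 7.46 and 25.2. These too were highest in pig 3, and what these barcodes hold, and their part in the values of the other cells, was not tested. With a minimum of 500 UMIs per barcode, nearly all listed pig barcodes were called as cells.

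MEIOB gave 13.2, 2.102 and 6.65 CPM in pig germ-like cells and 9.97, 4.33 and 6.23 in other cells, and the ranges overlapped. It gave 13.9, 14.99 and 10.3 in Leydig-like cells and 9.76, 4.59 and 21.0 in myoid-like cells of pigs 1, 2 and 3. Barcodes not called as cells gave 13.6, 5.34 and 8.02. Thinned to 1000 UMIs, MEIOB was seen in 1.15% ± 0.919 of germ-like and 0.385% ± 0.0618 of other pig cells (SD, n = 3, exact permutation p = 0.2). That share was higher in germ-like cells in 3 of 3 pigs, and at 2000 UMIs in 2 of 3 (exact permutation p = 0.3). The thinning left out 1924 other cells of pig 1 at 1000 UMIs and 2496 at 2000 UMIs. At 2000 UMIs pig 1, 1 of the 2 pigs that were higher, kept only 17 other cells, of which 0 had a MEIOB UMI.

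Of 15217 pig genes, 16.5% passed as higher and 35.1% in either direction. RAD51AP2 was higher by 5.17 ± 0.87 on the log2 scale (SE, edgeR, adjusted p = 0.00511), SPO11 by 4.11 ± 0.997 (adjusted p = 0.0155), DMC1 by 2.71 ± 0.56 (adjusted p = 0.00920) and HORMAD1 by 2.57 ± 0.79 (adjusted p = 0.0345). RAD51AP2 and SPO11, with 4 and 8 UMIs in other cells, passed the filter only through the germ-like cells. The log2 difference of MEIOB was -0.24 ± 0.69 (adjusted p = 0.805), with a pooled ratio of 1.15 (95% counting interval 0.891 to 1.48). Without pig 1, SPO11, HORMAD1 and DMC1 lost the call (adjusted p = 0.0784, 0.107 and 0.0523), and without pig 2, HORMAD1 and DMC1 did (0.127 and 0.0642). None of the 4 passed where germ-like cells were those with UMIs of 2 germ markers, or where clusters were named against all other cells, a choice that moved 1259 of the 1825 germ-like cells to the other cells.

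Within the pig germ-like cells, 1 small cluster held a far larger share of the UMIs of MEIOB, DMC1 and RAD51AP2 than of the cells, in pigs 1 and 3. Of the 6 germ-like clusters, the one with the highest level of TEX101, number 10, held 40, 7 and 55 cells of pigs 1, 2 and 3, or 5.59% of the 1825 cells and 3.45% of their UMIs. It held 59.6% of the germ-like UMIs of RAD51AP2, 54.9% of those of MEIOB and 49.4% of those of DMC1. For HORMAD1 the share was 32.8% and for SPO11 14.8%. The reported recombination and stage genes were not used to form the clusters. The cluster was singled out after its values were seen, so its levels are a description.

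In pigs 1 and 3, cluster 10 gave 158 and 208 CPM of DMC1, 116 and 159 of RAD51AP2, 211 and 405 of HORMAD1 and 190 and 92.2 of MEIOB. SPO11 gave 0 in pig 1 and 44.0 in pig 3. The 7 cells of pig 2 held 18 UMIs of HORMAD1, 2 of DMC1 and 0 of the other 3 genes. Without cluster 10, HORMAD1 and DMC1 no longer passed in pigs (log2 difference 2.08 and 1.91, edgeR adjusted p = 0.0739 and 0.0555), and MEIOB was at -1.41 (adjusted p = 0.0842). Naming clusters against all other cells moved all 102 cells of cluster 10 to the other cells. Taking germ-like cells by 2 germ markers per cell moved 40 of them. The part of these moves in the calls lost under those 2 choices was not tested.

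Cluster 10 was also high in some genes of meiotic prophase and in some, not all, of those listed for pachytene and later spermatocytes. SYCP1, of the synaptonemal complex, gave 668 CPM there and 51.4 in the other germ-like cells, TEX101 1950 and 24.4, and SPATA22 279 and 40.9. Of the later list, LDHC gave 283.65 and 27.933, SPAG6 210.71 and 2.8338, and PGK2 61.593 and 1.6772. From the same list CCNA1, at 12.967 and 14.343, TBPL1, at 116.7 and 120.58, and OVOL2, at 0 and 0.28916, were not higher in cluster 10. STRA8, UTF1 and GFRA1, known from spermatogonia, had 0 UMIs there, and KIT had 1. MND1, a partner of DMC1 in strand exchange, was not concentrated there, at 50.2 CPM in the cluster and 92.8 outside it.

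Cluster 13, with 214 cells, had the highest level of UTF1, at 87.5 CPM. DMC1 gave 4.19, 64.4 and 60.7 there in pigs 1, 2 and 3, SPO11 4.19, 23.1 and 13.2, and RAD51AP2 8.38, 21.5 and 10.6. Pig 1 was thus the lowest for all 3 genes. Cluster 16, with 527 cells and the highest levels of STRA8 and KIT, gave 5.10 CPM of DMC1 and 43.2 of HORMAD1 over the pooled pigs. Clusters 7 and 20 came from pig 1 and pig 2 for 97.3 and 98.9% of their cells and cannot be told apart from those libraries, and their DMC1 levels were 0.711 and 4.63.

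**Figure D2:**
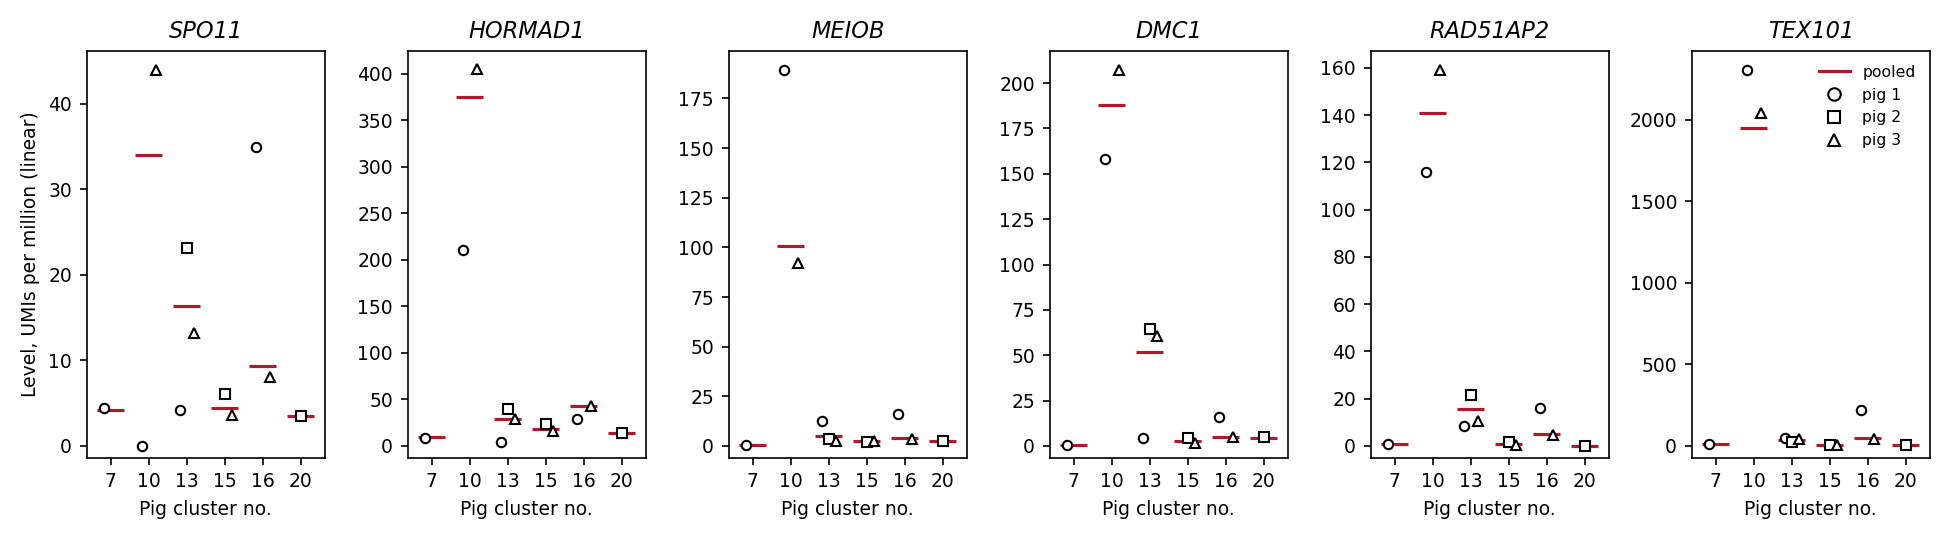
Levels of 5 recombination genes and TEX101 in the 6 pig germ-like clusters, in CPM on linear axes that differ between panels. Points are animals with at least 20 cells in the cluster and red bars the pooled cells. The pooled level is highest in cluster 10 in each panel, for TEX101 by the choice of that cluster. DMC1 and SPO11 have a second, lower pooled level in cluster 13.

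UMIs of several genes in 1 cell, such as HORMAD1 with DMC1, were frequent in cluster 10. Of its 102 cells, 64 (62.7%) had UMIs of 2 or more of the 5 genes. The share was 35.0% of 40 cells in pig 1 and 87.3% of 55 cells in pig 3, at median depths of 2306.5 and 6336 UMIs. In clusters 15 and 16, deeper at a median of 20676 and 10659 UMIs, it was 6.25 and 9.11%. Cluster 13 gave 14.0% of its 214 cells, with 0% in pig 1, 33.9% in pig 2 and 27.8% in pig 3. In cattle, where HSF2BP was counted too, 6.02, 17.9 and 44.0% of the germ-like cells had 2 or more (cattle 1, 2 and 3), which again follows depth.

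In cattle, the level of the genes listed for pachytene and later spermatocytes was compared between germ-like cells with and without a UMI of a recombination gene. Over the pooled animals the 23 cells with SPO11 gave 1446 CPM of that list and the 496 without 267, and the 13 cells with MEIOB gave 1969 and the 506 without 274. The pooled values of both genes rested largely on cattle 3. For MEIOB the levels with and without a UMI were 2159 and 265 in cattle 3 and 358 and 311 in cattle 2, and for SPO11 they were 1514 and 256 in cattle 3, 555 and 306 in cattle 2 and 0 and 216 in cattle 1, where 1 cell had a SPO11 UMI. In cattle 3, 11.8% of the cells with SPO11 also had MEIOB, and 25% of those with MEIOB also had SPO11. Leaving out either set left nearly the same level, so both high levels rest largely on the few cells with both genes. For DMC1 the pooled values were 380 and 384. These levels are pooled, so deep cells weigh most, and cells with a SPO11 UMI were deeper, at a median of 16803 against 6951.5 UMIs. In pigs the pooled levels of that list, with and without a UMI, were 673 and 166 CPM for DMC1, 493 and 196 for RAD51AP2, 329 and 198 for MEIOB, 259 and 199 for SPO11 and 233 and 189 for HORMAD1. Pig cells with a DMC1 UMI gave 716 CPM of TEX101 against 38.5 in cells without, and those with RAD51AP2 gave 1023 against 61.1. By animal, the TEX101 levels for DMC1 were 2351 and 109 in pig 1, 40.2 and 9.98 in pig 2 and 1008 and 35.3 in pig 3.

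Whether the germ-like difference differed between species was tested in 1 model over both. The difference, cattle minus pig, was 2.34 ± 1.06 on the log2 scale for MEIOB (SE, edgeR, adjusted p = 0.159), 2.16 ± 1.08 for DMC1 (adjusted p = 0.205), 2.01 ± 0.99 for HORMAD1 (adjusted p = 0.198), 1.04 ± 1.37 for SPO11 (adjusted p = 0.687) and -0.68 ± 1.29 for RAD51AP2 (adjusted p = 0.804). Of these, 0 passed by edgeR, where 15% of 12769 genes passed in either direction (5.96% higher and 9.07% lower in cattle). By DESeq2 0 passed as well, where 1387 of the 12769 genes were higher and 1160 lower. On simulated counts this edgeR test recovered 15% of 4-fold and 69% of 16-fold changes, so 0 of 5 does not show that the species are alike. At an unadjusted edgeR p under 0.05 there was 1 of the 5 (MEIOB), and 3686 of the 12769 genes. With the animal as a block, MEIOB passed (2.65, adjusted p = 0.0373).

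Within germ-like cells, SPO11 was at 4.46 ± 1.48 CPM in cattle and 8.17 ± 0.54 in pigs, and DMC1 at 4.57 ± 4.58 and 12.5 ± 1.51 (SD, n = 3). Neither gene's ranges overlapped (exact permutation p = 0.1, the smallest possible, for each of these among 5 genes compared). In cattle 1, 1 germ-like cell had a UMI of SPO11 and 0 had one of DMC1, so these values lie near the floor. Thinned to 1000 UMIs per cell, the shares of germ-like cells with each gene did overlap between species (exact permutation p = 0.2 for SPO11 and 0.3 for DMC1). HORMAD1, at 28.5 ± 6.97 and 32.3 ± 12.8, RAD51AP2, at 7.87 ± 5.13 and 7.58 ± 3.13, and MEIOB, at 2.43 ± 2.11 and 7.31 ± 5.56, did overlap (exact permutation p = 0.8, 1 and 0.3).

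A wider list of recombination genes, without the 6 above, had 50 genes tested in each species. In cattle 23 were higher and 3 lower in germ-like cells, against 23.1 and 26.7% of all genes, with a median log2 difference of 1.24 over the list and -0.17 over all genes. In pigs 28 were higher and 0 lower, against 16.5 and 18.5%, with medians of 1.61 and -0.08. Both species tested 41 of these genes.

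Of genes for break formation, MEI4 and REC114, which act together to promote SPO11 activity, were higher in pigs by 5.09 ± 0.81 and 4.78 ± 0.57 on the log2 scale (SE, edgeR, adjusted p = 0.00443 and 0.00264). MEI4 had so few UMIs in other pig cells that it passed the filter only through the germ-like cells and had to differ. IHO1, listed as CCDC36, the partner of MEI4 and REC114, was higher by 2.69 ± 0.72 in pigs (adjusted p = 0.0220) and had a difference of 1.99 ± 0.78 in cattle (adjusted p = 0.0596). MEI1 was higher by 4.53 ± 0.54 in cattle (adjusted p = 0.000150) and had a difference of 3.61 ± 1.25 in pigs (adjusted p = 0.0510). ZCWPW1, a reader of histone marks at break sites, was higher by 3.01 ± 0.29 in cattle (adjusted p = 4.98e-05) and 2.88 ± 0.55 in pigs (adjusted p = 0.00722).

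HORMAD2, the relative of HORMAD1, was higher by 4.79 ± 1.05 in cattle (edgeR, adjusted p = 0.00425) and had a difference of 1.62 ± 1.23 in pigs (adjusted p = 0.331). In cattle it passed the filter only through germ-like cells, mostly those of cattle 3, and so had to differ. Its log2 ratio in cattle 2, 2.36, is what the scaling gives to equal counts in germ-like and other cells. TRIP13, which removes HORMAD proteins from the axis, was higher by 2.65 ± 0.91 and 1.35 ± 0.39 (adjusted p = 0.0363 and 0.0288). SPATA22 was higher in both species, by 4.50 ± 0.38 and 3.74 ± 0.71 (adjusted p = 2.73e-05 and 0.00718), and so passed in pigs, where its partner MEIOB did not. It gave 57.2 ± 11.2 CPM in cattle and 43.6 ± 11.2 in pig germ-like cells, and 1.09 ± 0.374 and 2.44 ± 2.71 in other cells (SD, n = 3).

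Of genes for strand exchange, MND1 was higher by 3.64 ± 0.39 in cattle and 2.56 ± 0.38 in pigs (edgeR, adjusted p = 8.69e-05 and 0.00390), and PSMC3IP, with which it forms a complex, by 2.35 ± 0.31 and 3.27 ± 0.57 (adjusted p = 0.000277 and 0.00562). SFR1, an accessory factor of strand exchange, was at -2.26 ± 0.39 in cattle and 2.47 ± 0.35 in pigs (adjusted p = 0.00124 and 0.00342), opposite in direction. BRCA2 was higher by 1.83 ± 0.55 in cattle (adjusted p = 0.0199) and had a difference of 0.47 ± 0.42 in pigs (adjusted p = 0.407), and BRME1, a partner of HSF2BP listed as C19orf57, was higher by 2.73 ± 0.63 in pigs (adjusted p = 0.0133).

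Of the remaining genes named by size of change, PRR19 and RBBP8 were higher in cattle by 4.11 ± 0.39 and 4.03 ± 0.49, and TEX11 in pigs by 3.59 ± 1.18 (edgeR, adjusted p = 4.40e-05, 0.000152 and 0.0436). In pigs TEX11, like MEI4, passed the filter only through the germ-like cells and had to differ. PRR19 was also higher in pigs, by 2.24 ± 0.39, and TEX11 in cattle, by 2.01 ± 0.25 (edgeR, adjusted p = 0.00553 and 0.000179). PRR19 and TEX11 act in crossover formation and RBBP8 in resection. Lower in cattle beside SFR1 were H2AFX, the histone marked at breaks, at -2.45 ± 0.33, and RPA3, of the general single-strand binding complex, at -2.22 ± 0.35 (adjusted p = 0.000310 and 0.000685). Between species 5 of 43 listed genes passed, where 15% of all genes did, CCNB1IP1 at 2.63 and SFR1, XRCC2, RAD51B and MUS81 at -4.89, -2.19, -2.03 and -2.00 (adjusted p = 0.00314, 0.000175, 0.0162, 0.0324 and 0.00712).

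**Figure D3:**
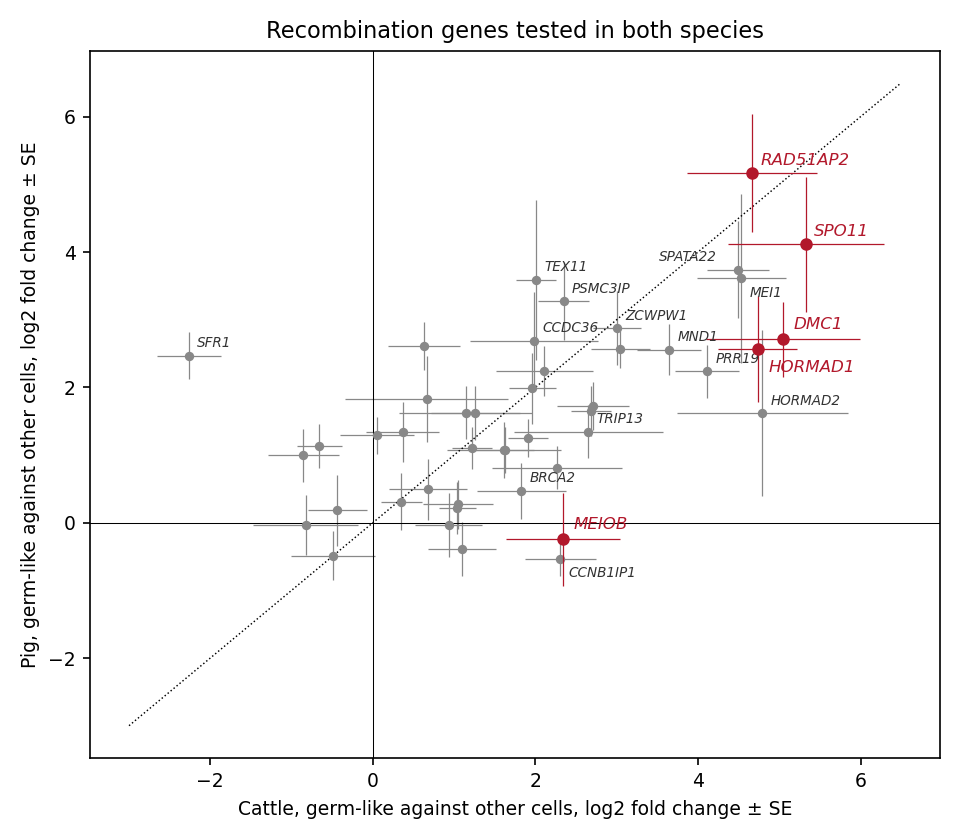
Log2 fold change of germ-like against other cells with its SE in cattle (x axis) and pigs (y axis) for the reported recombination genes tested in both, with the 5 shared genes of the opening in red and a dotted line of equality. RAD51AP2 and SPO11 lie high in both, but had so few UMIs in other cells that they had to differ. MEIOB lies near 0 in pigs, and SFR1 lies apart at -2.26 in cattle and 2.47 in pigs.

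Stage genes place the germ-like cells beside these results. SYCP3, of the chromosome axis, was higher by 4.28 ± 0.75 in cattle and 4.20 ± 1.33 in pigs (edgeR, adjusted p = 0.00124 and 0.0386), STRA8 by 1.45 ± 0.36 and 3.90 ± 0.78 (adjusted p = 0.00833 and 0.00849) and UTF1 by 7.08 ± 0.54 and 5.37 ± 0.47 (adjusted p = 2.03e-05 and 0.00196). TEX101 was higher by 5.35 ± 0.61 in cattle (adjusted p = 0.000115) and had a difference of 2.77 ± 1.14 in pigs (adjusted p = 0.0863). GFRA1 was higher by 3.63 ± 0.60 in cattle (adjusted p = 0.000916) and had a difference of 1.45 ± 0.77 in pigs (adjusted p = 0.169). KIT, also expressed outside the germ line, had differences of 0.20 and -0.16 (adjusted p = 0.804 and 0.863), and PIWIL1 one of 2.68 in pigs (adjusted p = 0.0749). Of the genes listed for pachytene and later spermatocytes, 6 of 6 tested were higher in cattle and 6 of 8 in pigs. Of those listed for spermatids, it was 3 of 3 in cattle and 3 of 4 in pigs, where the other was lower. Over all genes, 23.1% were higher in cattle and 16.5% in pigs. The 3 spermatid genes higher in pigs were named after their values were seen. TNP1, a transition protein of spermatid chromatin, was at 7.27 ± 1.35, PRM2, a protamine, at 5.58 ± 1.30 and SPACA1, of the acrosome, at 4.61 ± 0.71 (edgeR, adjusted p = 0.00996, 0.0191 and 0.00416). The lower gene, TNP2, was at -4.63 ± 1.51 (edgeR, adjusted p = 0.0425). TNP1, PRM2 and TNP2 had only 38, 14 and 2 UMIs in all pig germ-like cells. Genes this low can reach the minimum of 10 UMIs through 1 cell group alone, and then have to differ.

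**Figure D4:**
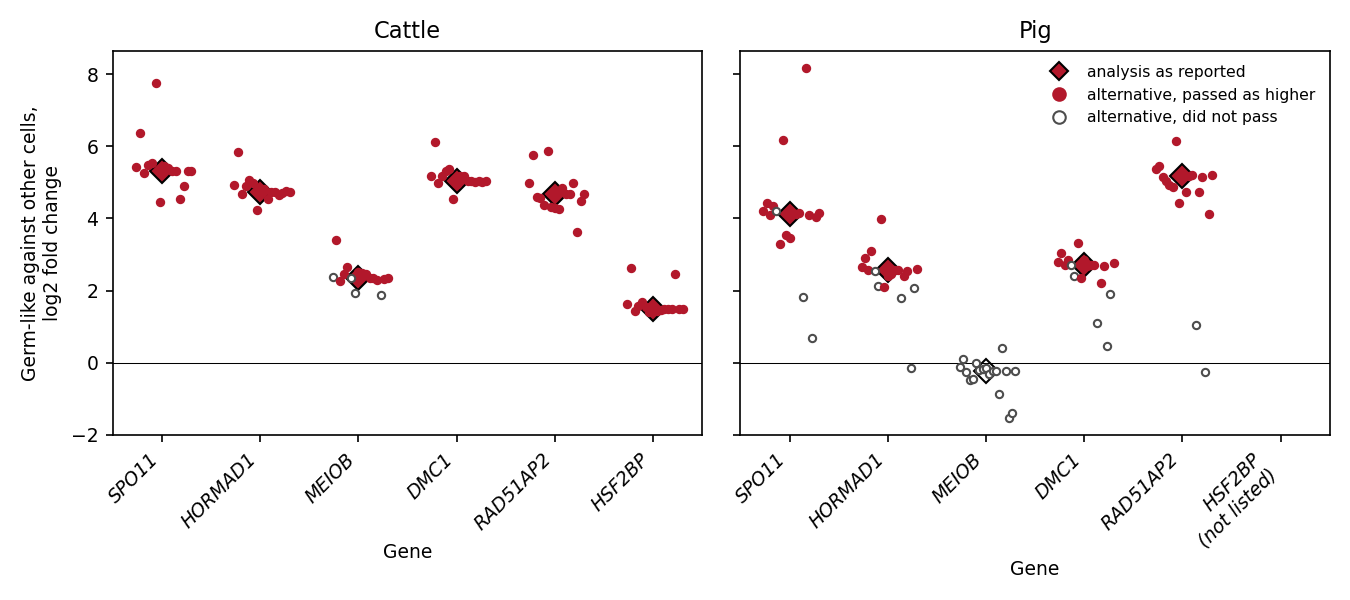
Log2 fold change of germ-like against other cells for each gene as reported (diamond) and under each processing alternative (circles, filled where the gene passed as higher). In cattle every circle lies above 0 and the open ones belong to MEIOB, whereas in pigs each of the 5 genes has open circles.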

How the data were processed

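The authors made the deposited count matrices (whole UMIs per gene and barcode, not normalized) with Cell Ranger 2.1.0 on ARS-UCD1.2 for cattle and Sscrofa11.1 for pigs, per the labels' processing notes, although the header of the pig matrices names a later software version. Cells were called with Cell Ranger's rule for 3000 expected cells and at least 200 genes, doublets were left out at 0.8% per 1000 cells, and cells of each species were clustered with scanpy 1.11.5 (2000 variable genes, 30 components, 15 neighbours, Leiden resolution 1, Python 3.11.15). The 6 members, the recombination list, the stage genes and mitochondrial genes were left out before clustering. Clusters were named from marker lists. For each animal, 1 sum was made of the germ-like cells and 1 of the rest, and genes with at least 10 UMIs were tested with edgeR 4.0.16 (R 4.3.3, quasi-likelihood, TMM, no block, Benjamini-Hochberg, threshold 0.05), with DESeq2 1.42.0 as an alternative. Since both sums of an animal derive from 1 library, the animal is a true pairing and was tried as a block. Levels are CPM of the summed cells. Intervals, and limits on values of 0, cover counting error only. Total UMIs per library were 5805223 to 53325608, so low genes in cattle 1 and pig 1 are the least precise. Named genes were the 6 members, their known partners, the 6 higher and 6 lower called recombination genes of largest change that went the same way in all 3 animals, stage genes, and the 3 genes most correlated with each member over clusters. In cattle an animal without UMIs of a gene counts as higher after scaling, so the rule on all 3 animals is weak there. Members and lists were chosen with earlier results of these data known. Pig files hold no barcodes with at most 50 UMIs. Of the partners, 1 is not reported here. The steps were tested on simulated data.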

Additional observations from a re-analysis of the deposited data

Results flagged for a closer look

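MEIOB had a log2 difference between germ-like and other cells of 2.34 in cattle and -0.24 in pigs, opposite in sign in the 3 animals of each species after TMM scaling and a prior count. In cattle 1, with 0 UMIs of MEIOB in germ-like cells, the sign comes from the prior count alone. In pigs it depends on the scaling, since the CPM of pigs 1 and 3 were higher in germ-like cells (13.2 against 9.97 and 6.65 against 6.23) and library size alone gave 0.088. Thinned to 1000 UMIs, the share of cells with a MEIOB UMI was higher in germ-like cells in 3 of 3 pigs, and at 2000 UMIs in 2 of 3. At 2000 UMIs only 17 other cells of pig 1 were left. The difference between species did not pass in the fit without a block (edgeR, adjusted p = 0.159). SFR1 differed between species by -4.89 on the log2 scale (edgeR, adjusted p = 0.000175).

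UMIs of the recombination genes were also present in barcodes not called as cells, which the comparisons as reported did not use. The alternatives with a lower minimum or more expected cells take in some of them, and in pigs nearly all. With a minimum of 500 UMIs, 6218 of 6220, 22914 of 22920 and 8774 of 8808 listed barcodes of pigs 1, 2 and 3 were called as cells, before doublets were left out. In cattle barcodes with over 50 UMIs there were 7 UMIs of SPO11, 77 of HORMAD1, 7 of MEIOB, 10 of DMC1, 13 of RAD51AP2 and 608 of HSF2BP. Those with at most 50 UMIs held 13 of HORMAD1 and 103 of HSF2BP. In the pig barcodes not called as cells as reported there were 51 of SPO11, 463 of HORMAD1, 230 of MEIOB, 131 of DMC1 and 26 of RAD51AP2.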

How the results depend on the processing

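Counts of called genes moved with the setting as follows, and where no value shows a cause, the cause was not tested. Of the 5 pig genes, 4 passed as reported, 1 to 4 without 1 pig in turn (1 without pig 1, 2 without pig 2), 0 with germ-like cells taken by 2 germ markers per cell, and, in settings chosen after seeing the data, 0 with clusters named against all other cells and 2 without the TEX101-rich cluster. Named against all other cells, pig HORMAD1, RAD51AP2, PSMC3IP and SFR1 turned to -0.15, -0.27, -0.699 and -0.0775, and the species difference of PSMC3IP to 2.84. Of the recombination list, the 23 higher in cattle became 39 with library size alone. Over all 14200 genes, those higher went from 3286 to 6248 there. The 3 lower became 5 with the animal as a block and 3 to 5 without 1 animal (5 without cattle 1). Over all genes, those lower in cattle went from 3794 to 4929 with the block and to 4346 without cattle 1. The 28 higher in pigs became 13 to 16 without 1 pig (13 without pig 1, 16 without pig 2 or 3). With clusters named against all other cells they became 1. The 0 lower became 1 there and 1 against Sertoli-like cells. Over all genes, those higher in pigs went from 2518 to 1043, 900 and 1372 without pigs 1, 2 and 3. They went to 688 with that naming, 1697 by 2 germ markers per cell and 2456 without the TEX101-rich cluster. All genes lower in pigs went from 2820 to 1272 with that naming and 2858 against Sertoli-like cells. Between species, 0 of 5 genes became 2 with library size alone, 1 with the block (MEIOB, 2.65), 3 with clusters named against all other cells and 1 without the TEX101-rich cluster, and the 5 listed genes became 9, 8 against Sertoli-like cells, 10 with that naming and 2 to 7 without 1 animal (2 without cattle 2 or cattle 3). Over all genes, 761 higher and 1158 lower in cattle became 2105 and 519 with library size alone and 1289 and 2016 with the block. They became 1039 and 1333 against Sertoli-like cells, 687 and 773 with that naming, and 854 and 1129 without the TEX101-rich cluster. Without cattle 2 they became 229 and 371, and without cattle 3, 231 and 521. Any of the 5 shared genes was seen in 4.09% of cattle and 6.64% of pig germ-like cells thinned to 1000 UMIs, and in 8.59 and 11.3% at 2000. SPO11 had no adjusted p in cattle without cattle 3. The block, a true pairing of sums from 1 library, moved no other call of the 6 genes. Depth limits SPO11, MEIOB, DMC1 and RAD51AP2 in cattle 1, where they rest on 0 to 4 UMIs.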

Other observations

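Over 25 pig clusters of at least 50 cells, the levels closest to SPO11 were those of LDHC and SPAG17 (Pearson r = 0.971 and 0.970), to DMC1 those of RSPH1 and CHGB (r = 0.980 and 0.976), and to RAD51AP2 those of PGK2, LIPI and RSPH1 (r = 0.988, 0.984 and 0.980). HORMAD1 ran closest to PGAM2 (r = 0.941) and MEIOB to FOPNL and C18orf54 (r = 0.809 and 0.796). Over 21 cattle clusters HORMAD1 ran closest to MOV10L1 (r = 0.990), followed by PAX3 and TFAP2B, and HSF2BP to RHOD, COX4I1 and MRPL45 (r = 0.870, 0.831 and 0.821). Cattle had only 1 germ-like cluster, so any gene largely confined to it has an r near that of HORMAD1. The clusters share libraries and depth, so these values are descriptions.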
